A study of Mus musculus with 4 samples.

Results

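Cell cycle genes and the cells that carry their transcripts were measured in the lung and the synovium of mice with and without a human TNF transgene. The genes were 40 members given by name, 24 of the G2 and M phases (G2/M) and 16 of the S phase, and all 40 were found among the 32285 genes of the count matrices. A barcode was called cycling when at least 5 of the 40 members had a unique molecular identifier (UMI, a counted transcript) after the barcode had been thinned at random to 2000 UMIs. Among the 22020 cells that could be thinned, 112 were cycling with the study's limit of 200 to 5000 genes per cell, and 388 of 25993 cells were cycling without its upper limit. The 4 groups, in the order in which values are given, were the lung of TNF- mice, the lung of TNF+ mice, the synovium of TNF- mice and the synovium of TNF+ mice. TNF+ mice (hTNFtg, also TNF-Tg) carried 1 copy of the human TNF gene, TNF- mice were their littermates without it, and the mice of every group were females aged 4 months. Before droplet capture, tissue of 3 to 5 mice per lung group and of 5 to 10 per synovium group was combined. Each group is therefore 1 library, no difference below has a replicate check, and no test between conditions was possible. The transgene changes TNF in the whole animal, so the cells of a TNF+ library differ in their surroundings as well as in their own genotype.

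Dividing cells make their transcripts in waves. At the start of S phase, E2F factors switch on the genes for the replicative helicase (Mcm2 to Mcm7, loaded by Cdc6 and joined by Gins2), the sliding clamp Pcna and the enzymes that make DNA precursors (Rrm1, Rrm2, Tyms, Tk1). Toward G2 and M, the DREAM complex releases a later set and Foxm1 and B-Myb drive it, with Cdk1 and its cyclins Ccna2, Ccnb1 and Ccnb2, the kinases Aurka, Aurkb, Plk1, Bub1, Bub1b and Ttk, and the proteins of the centromere and spindle. Resting cells keep some S-phase transcripts, whereas most G2/M transcripts fall after mitosis. In inflamed tissue, cells of a lineage can increase by division in place or by arrival from the blood, and a transcript count taken at 1 age shows the cells that were dividing at that moment.

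Promoters of cell cycle genes are known for a few short motifs. RefSeq promoters (GRCm38.p6, 250 bases before to 50 after the start of the gene) were matched for 35 of the 40 members, and none was matched for Aurkb, Ccna2, Gins2, Mcm4 and Tpx2. Motifs were searched on both strands: the CCAAT box (CCAAT, in reverse ATTGG), the cell cycle homology region (TTTGAA or TTCGAA) and the E2F site (TTTGGCGC, TTTGCCGC, TTTCGCGC or TTTCCCGC). The cell cycle homology region was in 17 of 21 G2/M members (81%) and in 2 of 14 S members (14.3%), and in 19.2% of the 32851 promoters of the table. The E2F site was in 7 of 14 S members (50%) and in 1 of 21 G2/M members (4.76%), and in 2.26% of all promoters. The CCAAT box was in 19 of 21 G2/M members (90.5%), in 10 of 14 S members (71.4%) and in 37.4% of all promoters. A member with several promoters counted if any of them held the motif, as for Mcm7 and Uhrf1 with the E2F site. The share of all promoters was instead counted promoter by promoter. A match is a run of letters and not a measured binding site. The 130 bases before the RefSeq start are shown for 4 G2/M members and 2 S members, 5′ to 3′ on the strand of the gene, because they hold examples of each motif in members with many UMIs or large ratios, with every match in capitals. They lie at chr11:99024190-99024319 (Top2a, minus strand), chr10:69352913-69353042 (Cdk1, minus), chr2:164769799-164769928 (Ube2c, plus), chr9:70421555-70421684 (Ccnb2, minus), chr1:128359706-128359835 (Mcm6, minus) and chr1:20820313-20820442 (Mcm3, minus).
Top2a: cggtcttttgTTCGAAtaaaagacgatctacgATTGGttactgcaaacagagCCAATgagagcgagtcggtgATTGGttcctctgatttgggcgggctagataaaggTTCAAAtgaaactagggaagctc
Cdk1: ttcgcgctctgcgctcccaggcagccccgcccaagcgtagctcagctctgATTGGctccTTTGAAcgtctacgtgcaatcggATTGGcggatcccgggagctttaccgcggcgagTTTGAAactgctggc
Ube2c: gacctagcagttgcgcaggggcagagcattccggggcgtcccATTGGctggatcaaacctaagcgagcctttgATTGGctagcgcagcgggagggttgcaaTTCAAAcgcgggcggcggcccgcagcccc
Ccnb2: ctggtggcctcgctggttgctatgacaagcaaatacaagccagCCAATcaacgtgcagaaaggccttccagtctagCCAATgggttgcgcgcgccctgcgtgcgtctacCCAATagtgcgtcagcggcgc
Mcm6: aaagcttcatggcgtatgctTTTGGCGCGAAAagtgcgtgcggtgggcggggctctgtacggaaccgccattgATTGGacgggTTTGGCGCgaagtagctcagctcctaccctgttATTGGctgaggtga
Mcm3: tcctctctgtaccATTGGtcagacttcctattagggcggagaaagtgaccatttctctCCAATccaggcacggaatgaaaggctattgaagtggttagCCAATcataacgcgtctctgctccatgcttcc
Within these stretches Top2a and Cdk1 each held 2 cell cycle homology regions, Ube2c held 1 and the other three held none, while Mcm6 held 3 E2F matches. The stretch of Ccnb2 held 3 CCAAT boxes and none of the other motifs, and so did that of Mcm3. Within these stretches the CCAAT box did not tell this G2/M member from this S member. Outside the stretches shown, the promoter of Ccnb2 held 2 cell cycle homology regions and that of Mcm3 held 2 E2F sites.

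The libraries differed in depth and in the barcodes that the filter removed. They held 8555, 11243, 6899 and 4246 barcodes in the order given above, of which 6998, 9174, 6200 and 3152 were kept with 200 to 5000 genes and at most 20% mitochondrial UMIs. The tissue labels had their own markers. Sftpb and Scgb1a1 were among the leading genes of lung epithelial clusters, and fibroblasts were the largest class of the TNF- synovium. Kept cells had a median of 7137 to 12492 UMIs. The upper limit of 5000 genes was exceeded by 15.2% and 17% of TNF- and TNF+ lung barcodes and by 6.09% and 8.15% of TNF- and TNF+ synovial barcodes. The mitochondrial limit was exceeded by 17.6% of TNF+ synovial barcodes and by 1.41% to 3.78% of barcodes elsewhere. Any pair of libraries shared 5 to 21 barcode sequences, at most 0.304% of a library. Cells with fewer than 2000 UMIs could not be thinned and were left out of the cycling shares, 1124 (TNF-) and 1568 (TNF+) of the lung and 435 (TNF-) and 377 (TNF+) of the synovium. Each interval below is a 95% one for counting error alone.

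Few cells were cycling at 4 months. With the call used the share was higher in the TNF+ library of both tissues, a direction that in the lung depended on the call. Within the study's limits, 28 of 5874 TNF- lung cells (0.477%, 0.317 to 0.688), 47 of 7606 TNF+ lung cells (0.618%, 0.454 to 0.821), 18 of 5765 TNF- synovial cells (0.312%, 0.185 to 0.493) and 19 of 2775 TNF+ synovial cells (0.685%, 0.413 to 1.07) were cycling. The TNF+ share exceeded the TNF- share by 0.141 percentage points in the lung (-0.120 to 0.391) and by 0.372 points in the synovium (0.0672 to 0.772). Thus the lung difference was within counting error and the synovial one was not. The synovial libraries also differed in cell mix. Fibroblast-like cells were 53.8% of kept TNF- and 7.33% of kept TNF+ cells, and macrophage or monocyte-like cells 2.39% and 34.5%. The part of this mix in the share difference was not tested. The lung direction turned with 3 members required (-0.15 points), with S members only (-0.231) and at 4000 UMIs, where the difference was beyond counting error (-0.416, -0.850 to -0.00785). The synovial difference was within counting error with 8 members required (0.0614, -0.137 to 0.342), at 1000 UMIs (0.0351, -0.143 to 0.285), at 4000 UMIs (0.312, -0.111 to 0.834) and with S members only (0.146, -0.177 to 0.550). Over 20 random thinnings, the cycling cells numbered 21 to 29, 43 to 53, 16 to 24 and 11 to 20 in the same order, with medians of 25, 49, 20 and 14, so the 19 cells of the TNF+ synovium are near the top of their range. The mean shares over these draws differed by 0.211 points in the lung and by 0.165 points in the synovium.

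The upper limit on genes removed most of the cycling barcodes. Of all cycling barcodes, 72.5% and 73.8% in TNF- and TNF+ lung and 57.1% and 66.7% in TNF- and TNF+ synovium had more than 5000 genes. Barcodes over the limit were cycling in 6.09% (4.85 to 7.53), 7.07% (5.96 to 8.32), 5.71% (3.70 to 8.38) and 11% (7.89 to 14.8) of cases, in the same order. Without the upper limit, 107 of 7172 TNF- lung cells (1.49%), 182 of 9515 TNF+ lung cells (1.91%), 42 of 6185 TNF- synovial cells (0.679%) and 57 of 3121 TNF+ synovial cells (1.83%) were cycling. The differences were then 0.421 points in the lung (0.0203 to 0.811) and 1.15 points in the synovium (0.670 to 1.71). Over 20 thinnings the counts were 90 to 105, 174 to 193, 41 to 47 and 44 to 56, which puts the thinning used just above the range in the TNF- lung and the TNF+ synovium. The mean shares were 1.36%, 1.94%, 0.708% and 1.58%. Fibroblast-like cells, of which 0 were cycling, made up 3564 of the 6185 TNF- and 231 of the 3121 TNF+ synovial cells. These library shares therefore depend on the cell mix as well. Because the limit takes away most of the cells in question, cycling shares by cell type are given without it, and for the types with at least 10 cycling cells the counts inside it follow. Shares of single clusters are given without the limit alone, since cells inside it were clustered separately.

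**Figure D1:**
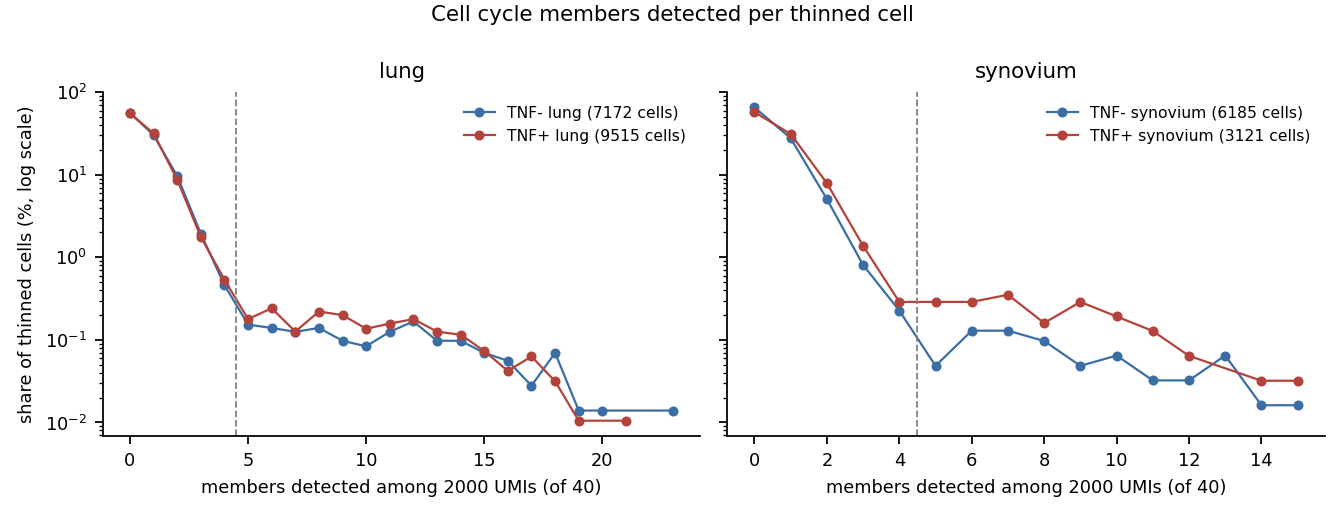
Share of thinned cells (y axis, percent, log scale) by the number of the 40 members detected among 2000 UMIs (x axis), without the upper limit on genes, for lung (left) and synovium (right), with 1 point per number of members. The dashed line marks the call at 5 members, which 107, 182, 42 and 57 cells reached in TNF- and TNF+ lung and then TNF- and TNF+ synovium, and cells at the far right held up to 23 members.

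The call sits in the thin part of the distribution. Cells with exactly 4 members numbered 33, 51, 14 and 9 in the group order above, and cells with exactly 5 numbered 11, 17, 3 and 9. The cycling cells had a median of 11, 9, 8 and 7 members and a mean of 11.2, 10.1, 7.64 and 7.53 G2/M UMIs among their 2000, against 0.0967 to 0.211 G2/M UMIs in the other cells. More cycling cells had more G2/M than S members detected than the reverse. In the lung the counts were 60 against 42 (TNF-) and 124 against 50 (TNF+). In the synovium they were 27 against 12 (TNF-) and 43 against 12 (TNF+). The lists hold 24 G2/M and 16 S members, so this comparison leans toward G2/M. Cycling cells were also deeper than the others. Their median was 31121 to 37965 UMIs, against 9117 to 13865 for the other cells of the 4 libraries. Among the cells with the highest Scrublet doublet scores were 39.3%, 17.6%, 9.52% and 12.3% of cycling cells and 6.53%, 8.25%, 5.63% and 2.97% of other cells. The part of doublets in the cycling call was not tested beyond removing those cells, which left 0.975%, 1.72%, 0.651% and 1.65% cycling in the group order. As a background, lung neutrophils, which do not divide, gave 0 cycling cells of 296 in the TNF- library (up to 1.01% at this count). In the TNF+ library they gave 0 of 167 (up to 1.8%). With megakaryocyte or platelet-like cells added, 1 of 327 TNF- lung cells was cycling (0.306%, 0.00774 to 1.69). In the TNF+ lung the count was then 0 of 191 (up to 1.57%).

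Cell types came from clusters made without the cell cycle genes and named from fixed marker lists, so each name stands for cells like that type. In the lung, dendritic cell-like cells had the highest cycling share of the types with at least 10 cycling cells and 50 thinned cells in each library. In TNF+ lung, 50 of 510 dendritic cells were cycling (9.80%, 7.36 to 12.7), and in TNF- lung 11 of 164 (6.71%, 3.40 to 11.7). The difference of 3.10 points lay within counting error (-2.31 to 7.21). Inside the study's limits the shares were 4.38% (12 of 274) for TNF+ and 2.22% (2 of 90) for TNF-. All cycling dendritic cells of the lung were in the cluster led by Cd209a, Mgl2 and Xcr1, genes of conventional dendritic cells. Of these cycling cells 4% in TNF+ and 27.3% in TNF- lung were among the highest Scrublet scores. Over 20 thinnings there were 49 to 62 cycling dendritic cells in TNF+ lung, against 7 to 12 in TNF- lung.

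Lung macrophages and monocytes had the opposite direction. Among macrophage or monocyte-like cells, 65 of 4798 were cycling in the TNF+ lung (1.35%, 1.05 to 1.72) and 35 of 959 in the TNF- lung (3.65%, 2.56 to 5.04), a difference of -2.29 points (-3.71 to -1.22). Inside the limits it was -0.770 points (-1.93 to -0.194). Of the cycling cells of this class, 51.4% in TNF- and 23.1% in TNF+ lung were among the highest Scrublet scores, and without those scores the difference was -0.765 points and within counting error (-1.92 to 0.0298), from 50 of 4414 TNF+ and 17 of 896 TNF- cells. Different clusters held this class in the 2 genotypes. In the TNF- lung 31 of the 35 cycling cells were in a cluster led by Gal, Cpne5 and Acaa1b, where 7.40% of 419 cells were cycling (5.08 to 10.3), and only 21 TNF+ cells fell there, 2 of them cycling. Among TNF+ lung cells 32 of the 65 were in a cluster led by Egfem1, Cxcl3 and Ch25h, where 5.23% of 612 cells were cycling (3.6 to 7.30), and 19 TNF- cells fell there, 1 of them cycling. A further 14 of 524 TNF+ cells (2.67%) were cycling in the cluster led by Cxcl13, C1qc and Ccl8, the last of these a chemokine of tissue macrophages. The largest TNF+ cluster of the class, led by Ccdc192, Cd300e and Tgm3, held 0 cycling cells of 2789 (which allows up to 0.108%) and, in the TNF- lung, 0 of 281 (up to 1.07%). Clusters that are mostly of 1 library cannot be told apart from that library.

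Lung lymphocytes cycled in both genotypes. T cell-like cells were cycling in 31 of 1628 cases in the TNF+ lung (1.90%, 1.3 to 2.69) and in 30 of 1044 in the TNF- lung (2.87%, 1.95 to 4.08), a difference of -0.969 points that lay within counting error (-2.29 to 0.191). Inside the limits the counts were 14 of 1470 (TNF+) and 11 of 970 (TNF-). The cluster led by Foxp3, Ctla4 and Tnfrsf4, genes of regulatory and activated T cells, held 22 cycling cells among 1006 in the TNF+ lung (2.19%, 1.38 to 3.29) and 24 among 327 in the TNF- lung (7.34%, 4.76 to 10.7). There the difference of -5.15 points was beyond counting error (-8.58 to -2.55). In the cluster led by Dapl1, Lef1 and Gm14085, which holds naive T cell genes, 5 of 388 TNF+ and 3 of 605 TNF- cells were cycling. NK or innate lymphoid cell-like cells were cycling in 6 of 151 TNF+ cases (3.97%, 1.47 to 8.45) and in 2 of 199 TNF- cases (1.01%, 0.122 to 3.58), and inside the limits in 2 of 136 and 0 of 193 (up to 1.55%). For B cell-like cells the counts were 11 of 1444 in TNF+ (0.762%) and 7 of 1262 in TNF- lung (0.555%), a difference of 0.207 points (-0.468 to 0.869), and inside the limits they were 3 of 1384 and 3 of 1230. Plasma cell-like cells numbered only 34 in the thinned TNF- lung, 7 of them cycling, against 4 of 165 in the TNF+ lung, and removing the highest Scrublet scores left 1 of 28 in the TNF- lung.

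Endothelial cell-like cells of the lung had the largest share difference among the lung types with at least 10 cycling cells in each library. In the TNF+ lung 13 of 219 were cycling (5.94%, 3.2 to 9.94) and in the TNF- lung 11 of 1977 (0.556%, 0.278 to 0.993), a difference of 5.38 points (2.91 to 9.34). Inside the study's limits the counts were 4 of 129 for TNF+ and 3 of 1679 for TNF-, a difference of 2.92 points (1.002 to 7.52). With 3 S members required in place of 5 of all members, the difference inside the limits had the other sign, -0.536 points (-1.02 to 2.37). The highest Scrublet scores held 23.1% of the TNF+ and 45.5% of the TNF- cycling cells, and without them the difference was 4.75 points (2.42 to 8.77) with no upper limit. The TNF+ endothelial cells were shallow, with 271 of the 400 kept cells (67.8%) under 2000 UMIs and so left out. Of the 13 cycling TNF+ cells, 12 were in a cluster led by Prnd, Far2 and Gm46565, where 7.55% of 159 cells were cycling (3.96 to 12.8) and 5 TNF- cells gave 0. The main TNF- cluster, led by Glp1r, Tek and Npr3, held 2 cycling cells of 1394 and 2 TNF+ cells. The endothelial comparison is therefore also one between different clusters. Lung fibroblasts, neutrophils and mural cells gave 2 cycling cells together, both of them fibroblasts of the TNF- lung (2 of 378).

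**Figure D2:**
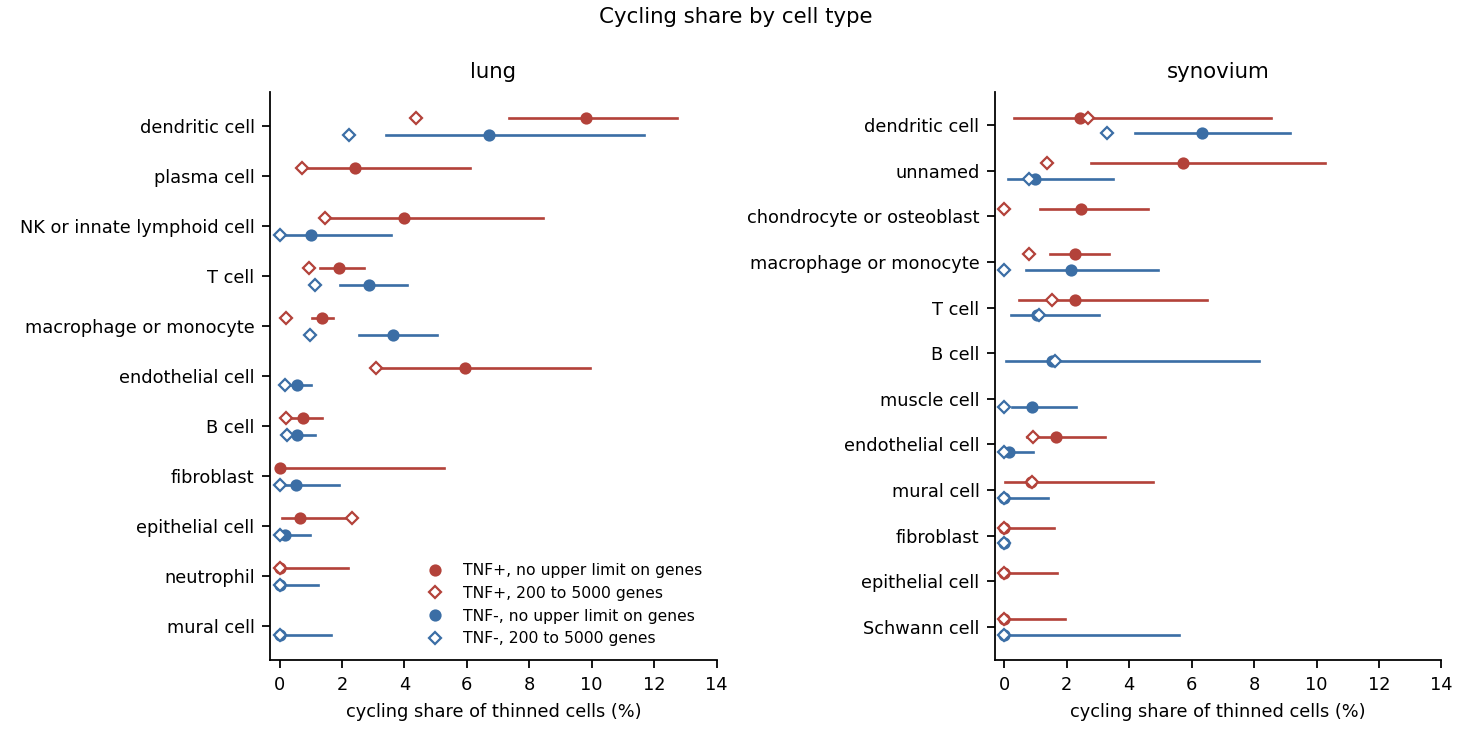
Cycling share of thinned cells (x axis, percent) by cell type (y axis) in lung (left) and synovium (right), for TNF+ (red) and TNF- (blue) libraries with at least 50 thinned cells of the type. Filled circles with 95% exact binomial intervals are without the upper limit on genes and open diamonds are inside 200 to 5000 genes. Lung endothelium (5.94% against 0.556%) and lung macrophages (1.35% against 3.65%) have intervals that do not meet. Synovial cells named fibroblasts are at 0 in both libraries.

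In the synovium, dendritic cells held the most cycling cells of the TNF- library and macrophages those of the TNF+ library. In the TNF- synovium 26 of the 42 cycling cells were dendritic cell-like (26 of 410, 6.34%, 4.18 to 9.15), and in the TNF+ synovium 2 of 82 such cells were cycling (2.44%, 0.297 to 8.53). The difference of -3.90 points lay within counting error (-7.20 to 2.44), and inside the limits 12 of 365 TNF- and 2 of 75 TNF+ dendritic cells were cycling. In the TNF+ synovium 24 of the 57 were macrophages or monocytes (24 of 1058, 2.27%, 1.46 to 3.36), and 5 of 233 TNF- cells of this class were cycling (2.15%, 0.7 to 4.94), a difference of 0.123 points (-2.75 to 1.76). Inside the limits the counts of this class were 8 of 1004 (TNF+) and 0 of 141 (TNF-, up to 2.13%). Of the 24 TNF+ cells 21 were in the cluster led by Clec4n, Clec4e and Cxcl2, inflammatory lectin receptors and a neutrophil chemokine, where 3.08% of 681 cells were cycling (1.92 to 4.68). That cluster held 7 TNF- cells, 2 of them cycling. A cluster led by Mmp9, Acp5 and Atp6v0d2, genes of bone-resorbing osteoclasts, was present in the TNF+ synovium alone and stayed unnamed by the marker rule. Among its 48 cells 7 were cycling (14.6%, 6.07 to 27.8).

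Few stromal cells of the synovium were cycling. Fibroblast-like cells, the largest class of the TNF- synovium, gave 0 cycling cells of 3564 in the TNF- and 0 of 231 in the TNF+ library, which allows shares of up to 0.0842% and 1.3%. Cycling mesenchymal cells were instead in the cluster led by Mmp13, Cxcl5 and Ibsp, a collagenase, a neutrophil chemokine and a bone matrix protein, which had more chondrocyte or osteoblast than fibroblast markers. There 9 of 366 TNF+ cells were cycling (2.46%, 1.13 to 4.62), all of them with more than 5000 genes, and inside the limits the count was 0 of 213 (up to 1.41%). The TNF- synovium had 2 cells of this cluster. Its name rests on a narrow margin. Inside the limits, the cluster led by Ibsp, Mmp13 and Saa3 had 8 chondrocyte or osteoblast markers and 6 fibroblast markers. The 0 for fibroblasts therefore depends on how these cells were named. Endothelial cell-like cells were cycling in 8 of 486 cases in the TNF+ (1.65%, 0.713 to 3.22) and in 1 of 615 in the TNF- synovium (0.163%, 0.00412 to 0.903), a difference of 1.48 points (0.378 to 3.06). Inside the limits the counts were 4 of 441 and 0 of 600 (up to 0.5%), a difference of 0.907 points (0.0636 to 2.31). Over 20 thinnings the counts were 2 to 7 (TNF+) and 1 to 2 (TNF-), so the 8 of the thinning used is above their range. Without the highest Scrublet scores the difference was 0.902 points and within counting error (-0.0991 to 2.32), from 5 of 466 TNF+ and 1 of 585 TNF- cells. In the TNF- synovium 4 cycling cells of 389 lay in the cluster led by Asb5, Hs6st3 and Pax7, genes of muscle satellite cells. T cell-like cells gave 3 of 132 TNF+ and 3 of 287 TNF- cells, and inside the limits 2 of 131 and 3 of 270. Over 20 thinnings the mean shares were 1.52% (TNF+) and 1.86% (TNF-), with the opposite order to the thinning used. Inside the limits this class included a cluster led by Il5, Dach2 and Csf2, with 9 T cell and 7 NK or innate lymphoid markers. It held 143 of the 274 kept TNF- cells of the class and 18 of the 147 TNF+ cells. The class may therefore mix T cells and innate lymphoid cells differently in the 2 libraries.

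The 40 members were chosen by name, and genes outside the list were compared between cycling and other cells as a description, with no test. In 385 cycling cells compared with the other cells of their own cluster and library, 41 of 42 other mitosis genes with at least 20 UMIs were at least 2-fold higher (median log2 ratio 3.91), as were 24 of 26 other replication genes (2.79) and 22 of 24 histone genes (2.95). Over all 8691 genes other than members, 6.52% were at least 2-fold higher and 3.19% at least 2-fold lower. Pclaf, a partner of Pcna, had 0.818 UMIs per thinned cycling cell and 0.00747 in the other cells (log2 ratio 6.71), and the linker histone Hist1h1b had 0.756 and 0.00524 (6.60). The chromatin protein Hmgb2 had 4.28 and 0.364 UMIs per cell (3.56), and Stmn1, which destabilises microtubules, had 2.03 and 0.102 (4.31). Of 19 cell cycle transcription factors 10 were at least 2-fold higher and 1 lower. Foxm1 was at a log2 ratio of 3.77 and E2f7 and E2f8 at 4.09 and 3.97. In all ratios between cycling and other cells, a UMI count below 3 was set to 3. The ratios of Pclaf, Hist1h1b, Foxm1, E2f7 and E2f8 are therefore smaller than their counts alone would give. G1 genes and inhibitors showed less of this, with median log2 ratios of 0.17 and 0.06. The parts of these lists at least 2-fold higher were still above the 6.52% of all genes. Of 9 G1 cyclins and kinases 3 were higher and 1 lower, with Cdk2 at 1.55, Cdk4 at 1.26 and Ccnd3 at -1.01. Of 12 inhibitors 3 were higher and 0 lower, namely Cdkn2c (2.91), Rbl1 (1.79) and Cdkn2d (1.56), whereas Cdkn1a, the p53 target p21, was at -0.04. Among genes with at least 50 UMIs, the lowest in cycling cells were Iglv1 (-3.15), Mmp9 (-2.70), Thbs1 (-2.59) and Mmp12 (-2.42). Inside the study's limits the lowest were instead Cd14 (-2.78), Bank1 (-2.07), Tnip3 (-2.02) and Cxcl2 (-2.01).

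Members differed in how far they belonged to cycling cells. The cyclin Ccna2 had 87.3% of its thinned UMIs in the 388 cycling cells, the hyaluronan receptor Hmmr 83.5%, the kinetochore protein Cenpf 79.8%, the ubiquitin ligase partner Ube2c 73.4% and survivin (Birc5) 71.5%. At the other end, the clamp Pcna had 7.05%, Mcm4 9.16%, the kinesin Kif23 17.4%, the checkpoint kinase Bub1b 17.5% and the centromeric histone Cenpa 20%. Mki67 (ENSMUSG00000031004), which coats mitotic chromosomes, was detected in 61.1% of cycling and 1.25% of other cells. Top2a (ENSMUSG00000020914), which untangles DNA, was detected in 60.3% and 1.41%, and Pcna (ENSMUSG00000027342) in 47.7% and 14.8%. All members enter the call, so this describes the call and tests nothing. The 10 members with the lowest shares, from Pcna up to Mcm2 (16.7%), were all S members.

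**Figure D3:**
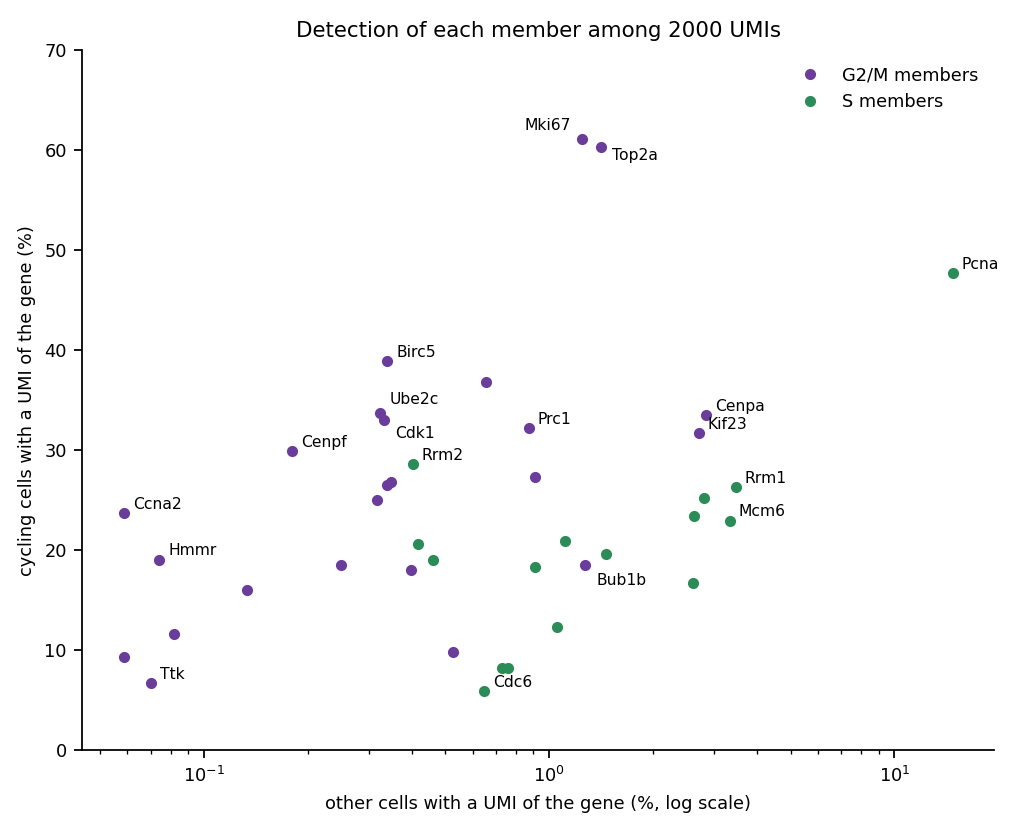
Share of cycling cells (y axis, percent) and of other cells (x axis, percent, log scale) with a UMI of each of the 40 members among 2000 UMIs, all libraries together, without the upper limit on genes. Each point is 1 gene, G2/M members in purple and S members in green. Mki67 (61.1% and 1.25%) and Top2a (60.3% and 1.41%) stand at the top, Ccna2 and Hmmr at the far left, and Pcna at the far right with 14.8% of other cells.

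Summed over whole lung libraries, the members differed little between genotypes. UMIs of a gene were summed over kept cells and given as CPM, the number expected were the UMIs of all genes in those cells scaled to 1000000. Where CPM values of a gene follow each other below, the TNF- value comes first. In such sums, fewer dividing cells, less transcript per dividing cell and another mix of cell types cannot be told apart. Inside the study's limits the median log2 ratio of TNF+ over TNF- was -0.16 over the 40 members, all of which had at least 20 UMIs, against -0.32 over all genes, and it became positive when libraries were scaled by the median of ratios (0.16) or each cell was weighted equally (0.40). At least 2-fold higher in the TNF+ lung was 1 member, against 5.79% of all 19510 genes, and 2 were at least 2-fold lower, against 25.5%. Without the upper limit the median was -0.02, with 2 higher (background 5.48%) and 0 lower (25.9%). The 2 higher members were the kinase genes Tk1, which salvages thymidine, and Bub1b. Tk1 (ENSMUSG00000025574, chromosome 11, 117815526 to 117826092) had 2.45 CPM (2.05 to 2.91) for TNF- against 12 CPM (11.3 to 12.7) for TNF+ lung inside the limits, a log2 ratio of 2.29 (2.02 to 2.56), and 6.32 and 15.3 CPM without the upper limit. Bub1b (ENSMUSG00000040084, chromosome 2, 118598211 to 118641591) was at 11.6 and 24.6 CPM without the limit (1.08, 0.98 to 1.18) and at 4.00 and 7.82 CPM inside it (0.97). In both filters the TNF+ lung was the higher for these genes. The members at least 2-fold lower inside the limits were the mitotic kinase Aurka (4.74 CPM in TNF-, 2.26 in TNF+, log2 ratio -1.07) and the helicase loader Cdc6 (4.44 and 1.99 CPM, -1.16).

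The lung members with the most UMIs showed differences below 2-fold. Inside the limits Mki67 had 8.75 CPM (7.98 to 9.58) for TNF- against 14.1 CPM (13.3 to 14.9) for TNF+ lung, a log2 ratio of 0.69. Top2a was at 15.2 and 12.2 CPM (-0.31), and without the upper limit at 34.5 and 38.4 CPM (0.16), so its order turned with the filter. Cenpa was at 23.2 and 17.2 CPM (-0.43), and Kif23, which works in cytokinesis, at 22.3 and 20 CPM (-0.16). The spindle midzone protein Prc1 was at 7.77 and 6.03 CPM (-0.37), and cyclin B2 (Ccnb2) at 6.71 and 6.68 CPM (-0.01). Among S members Pcna was at 70.3 and 68.8 CPM (-0.03), Mcm6 at 27.4 and 20.8 (-0.39), Mcm7 at 22.1 and 16.2 (-0.45) and Mcm3 at 17.7 and 16.6 (-0.10). Mcm5 stood higher in the TNF+ lung, at 7.14 and 11.7 CPM (0.71). The remaining lung members inside the limits lay between -0.83 (Nusap1, a spindle protein) and 0.34 (Cdk1).

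In the synovium the summed member levels were higher in the TNF+ library, above all those of G2/M. Such sums depend on the cell mix too. Without the upper limit, fibroblast-like cells were 54.4% of TNF- and 7.58% of TNF+ cells. Within single synovial classes the medians had both signs, such as -1.36 in dendritic cells and 0.27 in T cells, and are given below. The part of the cell mix in the sums was not tested. Inside the limits the median log2 ratio was 0.33 over the 40 members, 0.54 for G2/M and 0.18 for S members, against -0.17 over all genes. At least 2-fold higher were 7 members (background 11.8% of 19255 genes) and lower 0 (21.9%). Without the upper limit the median was 0.96, with 19 members higher (12.1%) and 0 lower (22.1%), of which 17 of 24 were G2/M and 2 of 16 S members. Scaling by the median of ratios gave 0.50 inside the limits, the same direction. Without the limit Cdk1, the kinase of mitotic entry, had 2.84 CPM (2.50 to 3.21) for TNF- against 15.4 CPM (14.3 to 16.5) for TNF+ synovium, a log2 ratio of 2.44 (2.23 to 2.65). Ube2c was at 4.98 and 22.8 CPM (2.19, 2.03 to 2.36), Hmmr at 1.55 and 5.87 (1.92) and Cenpf at 2.53 and 8.81 (1.80). Inside the limits these ratios were 1.60 for Cdk1, 0.47 for Ube2c, 1.27 for Hmmr and 0.79 for Cenpf. Plk1 was at 1.73 without and -0.10 inside the limits, and Ccnb1 at 1.72 and -0.39, so the higher levels of both were in barcodes of more than 5000 genes.

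Among the synovial members with the most UMIs, Mki67 had 6.09 CPM (5.55 to 6.67) for TNF- against 15.2 CPM (13.9 to 16.6) for TNF+ inside the limits (1.32, 1.13 to 1.5). Cenpa (ENSMUSG00000029177) was at 8.81 and 24.2 CPM (1.46, 1.31 to 1.61), Top2a at 5.50 and 8.75 (0.67) and Ccnb2 at 4.51 and 5.08 (0.17). Kif23 was at 6.56 and 6.26 CPM (-0.07) and Nusap1 at 4.44 and 4.05 (-0.13), so each was at a similar level in the 2 libraries. Of the S members Pcna was at 92 and 135 CPM (0.56, 0.50 to 0.61), Rrm1, a subunit of ribonucleotide reductase, at 24 and 27.2 (0.18), Mcm6 at 11.9 and 11 (-0.12) and Mcm4 at 11.4 and 9.08 (-0.32). The other members at least 2-fold higher inside the limits were Bub1b (1.92), Aurka (1.60) and Chaf1b (1.87), a histone chaperone whose reads overlap those of Gm49617 on the same strand and are uncertain for that reason. Without the limit Prc1 was at 1.61, Birc5 at 1.59, Bub1 at 1.55, Ccna2 at 1.41, Aurkb at 1.36 and the spindle factor Tpx2 at 1.05. In that setting 5 members had an interval that held 0, Kif23 at -0.09, Mcm7 at 0.04, Cdc6 at -0.10, Mcm6 at 0.12 and the kinase Ttk at 0.58 (42 UMIs in TNF- and 33 in TNF+). The remaining members, Tyms, Rrm2, Uhrf1, Gins2, Clspn, Tk1, Mcm2, Mcm3, Mcm5, Cenpe, Cdc20 and the kinesin Kif11, lay between 0.39 and 1.06.

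**Figure D4:**
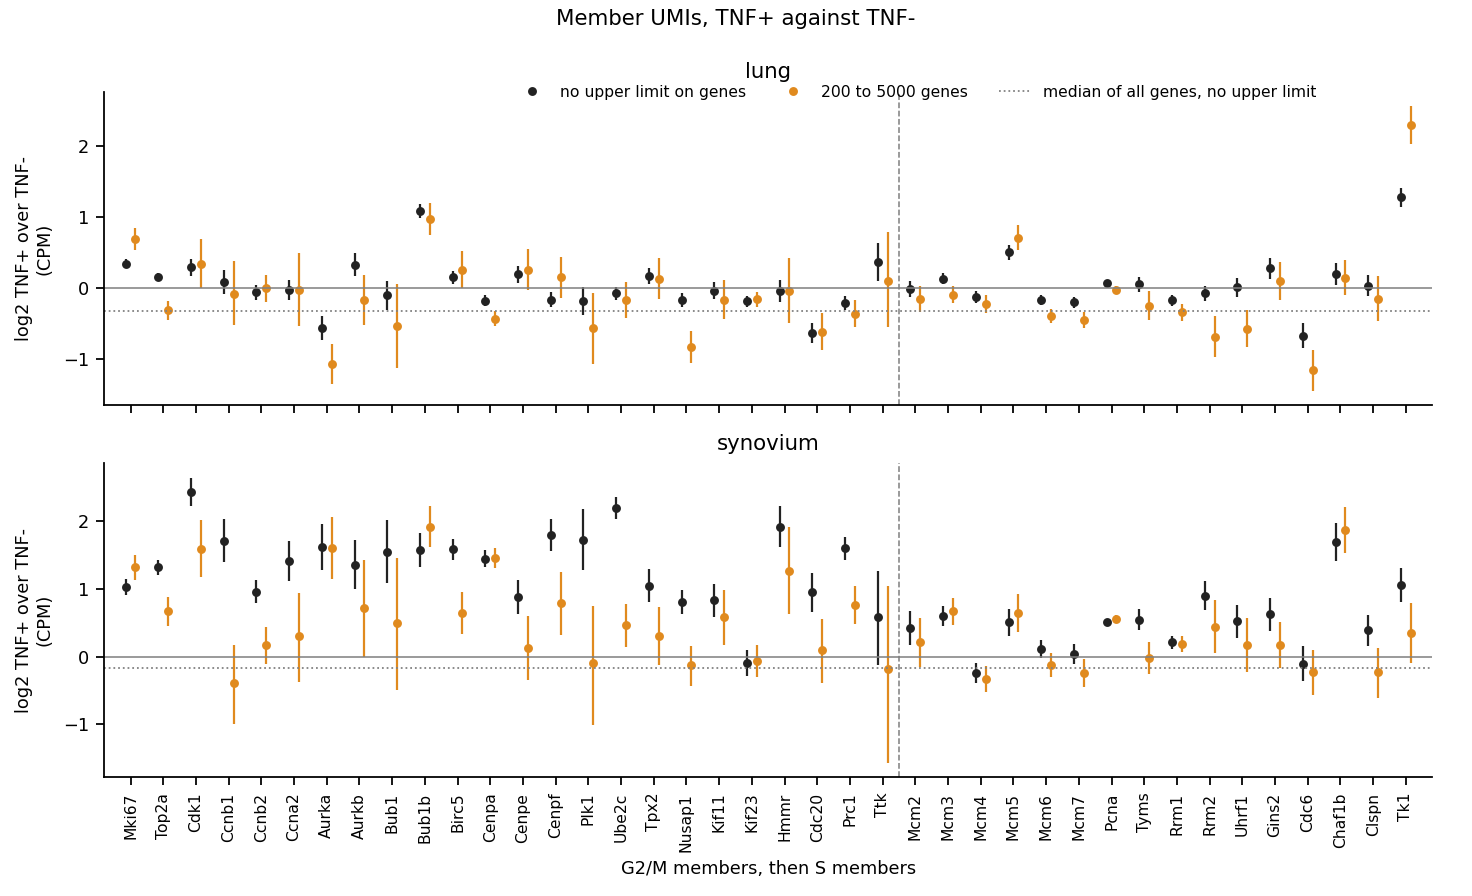
Log2 ratio of TNF+ over TNF- CPM (y axis) of each of the 40 members (x axis, G2/M left of the dashed line, S right of it) in whole lung (top) and synovium (bottom) libraries. Black points are without the upper limit on genes and orange points inside 200 to 5000 genes, with 95% intervals of counting error. In the synovium 37 of 40 black points lie above 0, while in the lung Bub1b (1.08) and Tk1 (1.27) stand out.

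By cell type, member levels were higher in the TNF+ library in lung endothelium and dendritic cells. In lung endothelium 32 of the 40 members were at least 2-fold higher in the TNF+ library (background 8.92%) and 0 lower (11%), with a median log2 ratio of 1.73, or 1.69 inside the limits. Mki67 was at 9.81 CPM for TNF- against 57.8 CPM for TNF+ lung endothelium (2.56, 2.29 to 2.83), and the chromatin regulator Uhrf1 at 1.17 and 17.1 CPM (3.87, 3.2 to 4.59). In lung dendritic cells 7 members were higher (5.22%) and 0 lower (8.11%), with a median of 0.60 (0.44 inside the limits). For their G2/M members the median was 0.79 and for their S members 0.10. Top2a was at 78.2 and 130 CPM (0.73), Hmmr at 5.32 and 18.9 (1.83) and Pcna at 98 and 88.1 (-0.15) in lung dendritic cells. NK or innate lymphoid cells had the same split without the upper limit. Their G2/M members summed to 445 CPM in TNF- and 851 in TNF+ lung, and their S members to 503 and 434 CPM. Inside the limits this class had 195 G2/M UMIs in 195 TNF- cells and 179 in 140 TNF+ cells, a smaller difference.

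With no upper limit, lung T cells and macrophages had lower member levels in the TNF+ library. In T cells 15 of the 40 members were at least 2-fold lower (background 9.52%) and 0 higher (6.58%), all 40 log2 ratios were below 0, and the median was -0.96. Inside the limits it was -0.20, with 15 of 39 members above 0. Top2a was at 90.9 CPM for TNF- against 42.8 CPM for TNF+ T cells (-1.09, -1.23 to -0.95), and Rrm2, the regulated subunit of ribonucleotide reductase, at 37 and 10.8 (-1.77, -2.03 to -1.52). In macrophages and monocytes 13 members were lower (13.9%) and 0 higher (6.83%), with a median of -0.87 against -0.16 over all genes (-0.69 and -0.12 inside the limits). Inside the limits the G2/M members had a median of -1.10, with 0 of 23 above 0, while the S members had a median of 0.05, with 9 of 16 above 0 and summed levels of 186 and 189.5 CPM. With no upper limit Mki67 was at 53.6 and 32.8 CPM (-0.71), and Tk1 was the only member above 0, at 12.3 and 15.9 CPM (0.37, 0.16 to 0.58). Lung B cells had 11 members higher (6.68%) and 1 lower (7.34%), with a median of 0.28 that became -0.46 inside the limits.

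Synovial classes were less uniform. In dendritic cells 23 of the 38 members with at least 20 UMIs were at least 2-fold lower in the TNF+ library (background 20.7%) and 2 higher (5.22%), with a median of -1.36 against -0.24 over all genes (-0.46 inside the limits). Birc5 was at 34.9 CPM for TNF- against 8.98 CPM for TNF+ dendritic cells (-1.96). Cenpa went the other way, at 44.5 and 157 CPM (1.82, 1.57 to 2.07), and so did Bub1b at 6.01 and 13.5 (1.16, 0.30 to 1.96). In macrophages and monocytes 4 members were higher (7.61%) and 2 lower (23.7%), with a median of -0.10 that became 0.68 inside the limits. The 4 higher were Ccnb1 (2 UMIs in TNF- and 94 in TNF+, log2 ratio 3.33, 1.44 to 6.4), Ube2c (6.41 and 21.7 CPM, 1.76), Bub1b (3.63 and 11.9, 1.71) and Nusap1 (5.58 and 12.4, 1.16), and the 2 lower were Kif23 (28.4 and 8.78, -1.70) and the kinetochore motor Cenpe (11.4 and 4.54, -1.33). Endothelium had 14 of 36 members higher (8.36%) and 0 lower (10.8%), median 0.76 (0.73 inside the limits), with Mki67 at 3.98 and 14.6 CPM (1.88, 1.07 to 2.77). Fibroblasts had 7 of 33 higher (11.8%) and 1 lower (13.6%), and a median of -0.04, from low levels. Their Mki67 was at 0.598 CPM in TNF- (34 UMIs) and 0.446 CPM in TNF+ cells (1 UMI).

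**Figure D5:**
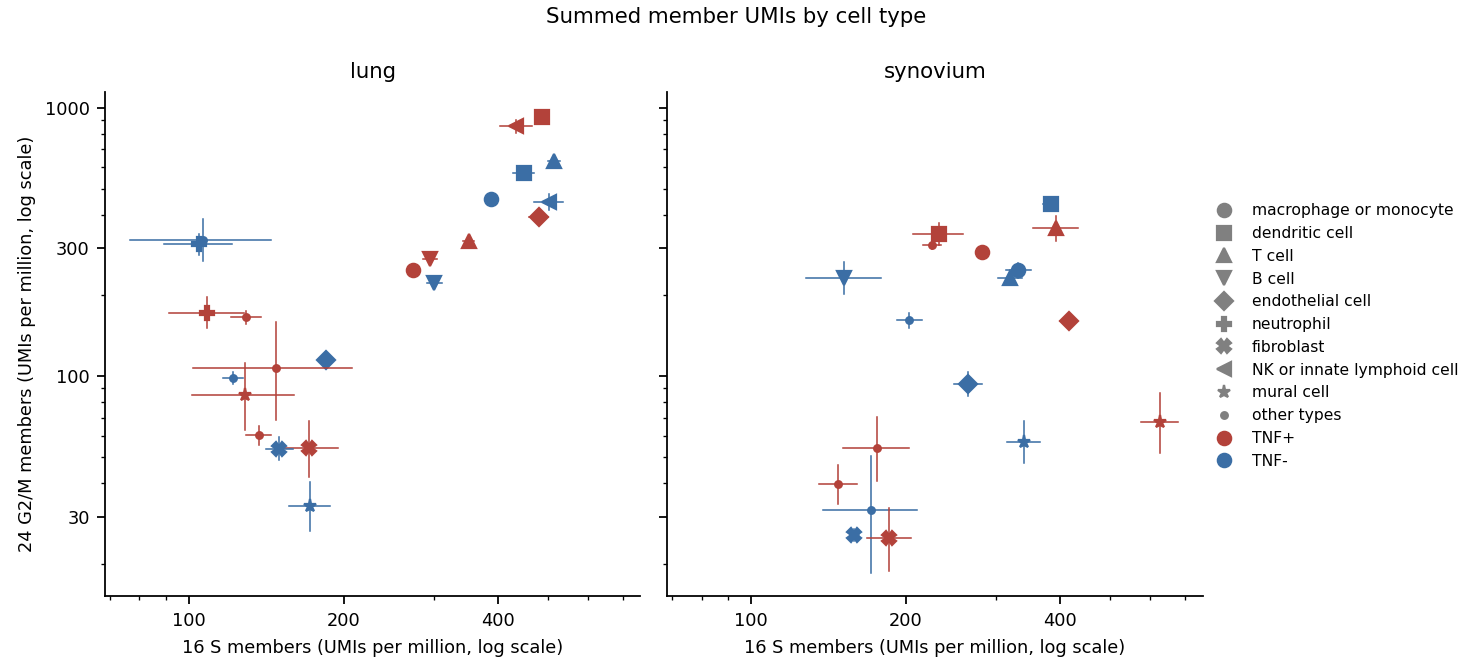
Summed CPM of the 24 G2/M members (y axis, log scale) against that of the 16 S members (x axis, log scale) for each cell type of a library, lung left and synovium right, without the upper limit on genes. TNF+ is red and TNF- blue, symbols give the type, and lines are 95% Poisson intervals. TNF+ lung dendritic cells are highest for G2/M (925 CPM), synovial fibroblasts are lowest (25.6 and 25 CPM), and neutrophils lie to the left with S members near 100.

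The lineages that held the G2/M transcripts differed between libraries and between filters. Without the upper limit, in the TNF+ lung, macrophages and monocytes made up 50.7% of the cells and 44.2% of the G2/M UMIs, and dendritic cells 4.66% of the cells and 25.7% of those UMIs. The TNF- lung drew 29.3% of its G2/M UMIs from macrophages and monocytes (12.1% of cells) and 24.9% from T cells (12.7% of cells). In the TNF- synovium dendritic cells gave 42.2% of the G2/M UMIs from 6.27% of the cells, while fibroblasts gave 16% from 54.4%. In the TNF+ synovium macrophages and monocytes gave 40.2% from 32.7% of the cells, and the Mmp13, Cxcl5 and Ibsp cluster 26.1% from 10.9%. Inside the limits the dendritic cells of the TNF+ lung held 8.01% of its G2/M UMIs from 3.49% of the cells, and its macrophages and monocytes 39.4% from 48.4%. For the TNF- lung the values were 16.1% from 9.19% of the cells in macrophages and monocytes and 28% from 14% in T cells. In the TNF- synovium dendritic cells then held 40.2% from 6% and fibroblasts 27.3% from 53.8%. In the TNF+ synovium macrophages and monocytes held 47.9% from 34.5%, and the chondrocyte or osteoblast-like class 4.3% from 7.33%, so this class was above its cell share without the limit and below it inside.

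Some members were detected in far more cells of a cluster than were cycling, and these clusters were chosen after their values were seen. Bub1b was detected in 85% of the 612 cells of the TNF+ lung cluster led by Egfem1, Cxcl3 and Ch25h (79.4 CPM, 75.8 to 83), in 57.4% of the 420 TNF- lung cells of the cluster led by Gal, Cpne5 and Acaa1b (57.1 CPM) and in 49.7% of the 302 TNF+ cells of the cluster led by H2-M2, Mmp12 and Gpnmb (45 CPM), against 4.7% of the 2802 TNF+ monocyte-like cells led by Ccdc192 and Cd300e (5.4 CPM). These shares are not thinned, and the median depths of the clusters were 38310, 26143.5, 32393 and 9633.5 UMIs in that order. Kif23 had 214 CPM (192 to 238) for TNF- against 105 CPM (87.8 to 124) for TNF+ lung neutrophils, in which 0 of 296 (up to 1.01%) and 0 of 167 (up to 1.8%) thinned cells were cycling. Rrm1 had 493 CPM (444 to 547) for TNF- against 639.6 CPM (582 to 701) for TNF+ synovial smooth muscle-like mural cells led by Myh11 and Pln. Pcna had 177 CPM (161 to 194) for TNF- against 318 CPM (299.8 to 338) for TNF+ synovial endothelium led by Timp4, Gm12002 and Gpihbp1, where 1 of 496 TNF- and 5 of 292 TNF+ cells were cycling. Tk1 was at 31.7 CPM in TNF+ lung macrophages led by Cxcl13 and C1qc and at 15.8 CPM in TNF+ monocyte-like cells led by Ccdc192 and Cd300e, which held 0 cycling cells, against 4.7 and 2.0 CPM (5 UMIs each) in the TNF- cells of these clusters. Read sharing with other genes, transcripts of resting cells and free RNA were not told apart for these members.

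Other genes of the cell cycle were read from lists by role. In the synovium without the upper limit, 17 of 45 other mitosis genes were at least 2-fold higher in the TNF+ library and 0 lower (median 0.87), as were 15 of 58 histone genes with 1 lower (0.56). Other replication genes had 5 of 31 higher and 1 lower (0.18), cell cycle transcription factors 0 of 21 higher and 1 lower (-0.11), G1 cyclins and kinases 1 of 9 higher and 0 lower (0.16) and inhibitors 2 of 15 higher and 1 lower (-0.15). Inside the limits, where the background for 2-fold higher genes was 11.8%, the lists had 6 of 45 mitosis genes higher and 0 lower (median 0.19), 5 of 48 histone genes higher and 2 lower (0.21) and 5 of 31 replication genes higher and 3 lower (0.01). In the lung without the limit the medians of these lists lay between -0.16 (G1 cyclins and kinases) and 0 (other mitosis genes), with 0 to 2 genes of a list higher. The backgrounds are those given for the whole libraries, 12.1% and 22.1% for synovium, 5.48% and 25.9% for lung.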

How the data were processed

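Lung and synovial cells were captured with a droplet 3′ kit, 1 library per genotype and tissue. The deposited matrices hold UMI counts per gene and barcode, which the authors made with Cell Ranger 7.0.1 on mm10 per the submitters' processing notes. The human transgene is not a counted gene. No cell annotation was used here. Barcodes with 200 to 5000 genes and at most 20% mitochondrial UMIs were kept, as in the study, and all values were repeated without the upper limit. Cells were thinned to 2000 UMIs for the cycling call. Clusters were made with scanpy 1.11.5 and leidenalg 0.10.2 (2000 variable genes without cell cycle genes, 30 components, 20 neighbours, resolution 0.8) and named from fixed markers. Doublets stayed in the values, and an alternative removed the highest Scrublet scores, 0.8% per 1000 barcodes. Shares have exact Clopper-Pearson intervals, their differences Newcombe intervals, CPM Poisson intervals and log2 ratios conditional binomial intervals, all at 95%. An upper limit for 0 is 3 counts of the total. Genes needed 20 UMIs in both libraries together for a ratio, and levels were not compared between genes, since intronic reads were counted. Gene positions are from GENCODE M21. The scripts were tested on simulated data. The members and lists were chosen with earlier results of these data known. All 40 members are named, the 6 G2/M and 4 S members with the most UMIs in each tissue in full, and cell types with at least 50 thinned and 10 cycling cells in a library.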

Additional observations from a re-analysis of the deposited data

Results flagged for a closer look

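The difference between TNF+ and TNF- had opposite signs in lung and synovium for 7 measures with the thinning used. With 1 library per group these differences between the tissues were not tested. The cycling share differed by -0.969 percentage points in lung and 1.23 in synovial T cells, by 3.10 and -3.90 in dendritic cells and by -2.29 and 0.123 in macrophages and monocytes. The synovial T cell value rests on 3 cycling cells in each library, and over 20 thinnings the mean synovial shares were 1.52% (TNF+) and 1.86% (TNF-), the same order as in the lung (1.92% and 2.83%). The synovial T cell class also held more cells of a cluster with innate lymphoid markers in the TNF- library. The median log2 ratio of the members was -0.158 in the whole lung and 0.330 in the whole synovium inside the study's limits. Without the upper limit on genes it was -0.955 and 0.270 in T cells, 0.603 and -1.36 in dendritic cells, and 0.273 and -0.0377 in fibroblasts.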

How the results depend on the processing

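No paired analysis was possible because each group is 1 library, and for the same reason no replicate could be left out. Of 294 alternatives of 21 results, 243 stayed within the counting interval or spread of the value, 47 moved beyond it and 4 reversed a member median or a share difference beyond counting error. Share differences within counting error also changed sign under some alternatives, and the cause of each change was not tested. The lung share difference (0.141 points) was -0.15 with 3 members required, -0.416 at 4000 UMIs, 1.26 without thinning, -0.231 with S members only, 0.421 without the upper limit, 0.411 with no filter, 0.747 without the limit and without the highest Scrublet scores, and 0.581 as the mean of 20 draws without the limit. The synovial difference (0.372) was 0.949 with 3 and 0.0614 with 8 members required, 0.0351 at 1000 UMIs, 1.85 without thinning, 1.15 without the limit, 1.08 with no filter, 1.003 with Scrublet removal as well and 0.871 as the mean of those draws. The lung member median (-0.16) was 0.16 with median-of-ratios scaling, 0.40 with each cell weighted equally, -0.0203 without the limit, -0.0161 with no filter and -0.0916 after Scrublet removal. The synovial median (0.33) was 0.50, 0.42, 0.96 without the limit and 0.94 with no filter. Lung endothelium was at -0.536 points with S members only and lung epithelium at -0.416 without thinning. Depth limits all shares, since cells under 2000 UMIs were left out. With the highest Scrublet scores removed and no upper limit, the intervals of the lung macrophage (-0.765) and synovial endothelial (0.902) differences took in 0, an alternative chosen after seeing the data, as were all those without the upper limit combined with another choice.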
